A study of Mus musculus with 18 samples.

Results

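Hepatic expression of 10 genes tied to the transcription factor NRF2 was followed in livers of mice that lack cytochrome P450 reductase in hepatocytes and in their controls, on 3 dietary fats. The genes are Gclc, Gclm, Txnrd1, Srxn1, Nqo1, Ephx1, Hmox1, Osgin1, G6pdx and Nfe2l2, which encodes NRF2 itself. They were taken by name, and each was read from the probe set that was brightest on average over the 18 arrays. A probe set with 1 gene name was available for 9 of the 10, and all 9 were bright enough to be tested among 12578 of 18193 named genes. G6pdx, the first enzyme of the pentose phosphate pathway, is not analysed here.

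Knockout mice were Alb-Cre+/-/POR-lox+/+ and controls were Alb-Cre-/-/POR-lox+/+, so the floxed reductase alleles were present in both. The albumin promoter drives Cre in hepatocytes, and the other cells of the liver keep the gene. All animals were male and 12 weeks old, and had eaten a synthetic diet made with fish and fungal oils, canola oil or lard for 8 weeks from the age of 4 weeks. They were fasted for 4 h before the livers were taken. The genotypes and diets make 6 groups of 3 arrays, and each array carried liver RNA pooled from 3 mice, so the pool is the unit of replication.

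Array medians of the log2 expression values lay between 5.229 and 5.286, and arrays of 1 group correlated at r = 0.98764 to 0.99562 across the genes tested. For microarrays it is the number of arrays that limits the precision. The hepatocyte markers measured, Alb, Apoa1, Ttr, Tat, Cps1 and Hnf4a, were above the array median on all 18 arrays. Por itself is not analysed here, and no check of the genotype labels by its level was made. A probe set's log2 value carries its own affinity, and RNA levels are compared below only between samples. Where probe sets are called bright or dim, or set against the array median, this describes their signal and not the amount of RNA. In whole liver, fewer cells of a type and less RNA per cell cannot be told apart.

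NRF2 is a basic leucine zipper factor that KEAP1 holds for degradation in unstressed cells. Electrophiles and oxidants modify KEAP1, NRF2 then enters the nucleus, and with a small Maf partner it binds antioxidant response elements near its target genes. In liver its targets make glutathione (Gclc, Gclm), recycle oxidised thiols (Txnrd1, Srxn1), reduce quinones (Nqo1), hydrolyse epoxides (Ephx1), break down haem (Hmox1) and supply NADPH (G6pdx). P450 reductase is the flavoprotein that passes electrons from NADPH to the microsomal P450 enzymes and to haem oxygenase.

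RefSeq's promoter table for build GRCm38.p6 held promoter windows, from 250 bases before a transcript's start to 50 after it, for 8 of the 10 genes (10 windows). Those of Hmox1 and Gclc are not shown. Both strands were searched for TGACNNNGC, the core of the antioxidant response element, and for TGANTCAGC, the form bound by NRF2 with small Maf proteins, where N is any base and a site with C in that place would meet both motifs. TGACNNNGC was found for 5 of the genes (Gclm, Srxn1, Txnrd1, G6pdx and Nfe2l2), and 12.4% of all 32851 windows hold it. TGANTCAGC was found for 2 of the 8, Srxn1 and Osgin1, against 1.37% of all genes with a window and 1.19% of all windows. The 2 motifs did not overlap each other in any member's window, and a match describes letters, not a binding site. The 250 bases before the start are printed for Srxn1, which holds TGANTCAGC, and for Ephx1 and Nqo1, which hold neither, and a shorter stretch is printed for Osgin1. Capitals mark a match to TGANTCAGC or its reverse complement. They lie at chr2:152105274-152105523 (plus strand) for Srxn1, at chr8:119437038-119437066 (plus strand) for Osgin1, at chr1:181017570-181017819 (minus strand) for Ephx1 and at chr8:107403206-107403455 (minus strand) for Nqo1.
Srxn1: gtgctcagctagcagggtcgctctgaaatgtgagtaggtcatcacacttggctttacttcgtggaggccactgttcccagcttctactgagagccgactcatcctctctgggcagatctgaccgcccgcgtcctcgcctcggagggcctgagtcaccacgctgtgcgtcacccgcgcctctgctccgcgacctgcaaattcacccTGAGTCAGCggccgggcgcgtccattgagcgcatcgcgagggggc
Osgin1: aggggcccctGCTGACTCAcgcttatgaa
Ephx1: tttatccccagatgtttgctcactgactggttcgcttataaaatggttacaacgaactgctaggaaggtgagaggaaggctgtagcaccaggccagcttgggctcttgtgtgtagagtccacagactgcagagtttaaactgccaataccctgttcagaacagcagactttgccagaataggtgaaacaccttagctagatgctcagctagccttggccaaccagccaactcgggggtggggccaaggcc
Nqo1: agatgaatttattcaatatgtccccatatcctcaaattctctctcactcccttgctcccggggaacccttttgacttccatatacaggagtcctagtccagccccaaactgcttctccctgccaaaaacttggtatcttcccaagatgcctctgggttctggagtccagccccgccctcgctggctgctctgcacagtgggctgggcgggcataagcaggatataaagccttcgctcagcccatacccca
The Srxn1 match is on the sense strand and begins 45 bases before the start, and a TGACNNNGC match on the other strand begins at base 29 after the start, outside the printed stretch. The Osgin1 match is on the antisense strand and begins 99 bases before the start of its window's transcript, which lies inside the annotated span of the gene.

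The first comparison set knockout against control livers, averaged over the 3 diets with 9 arrays per genotype. Hmox1 rose 1.55-fold and Ephx1 1.35-fold, and no member fell. Srxn1 stood 1.44-fold higher in knockout livers without passing the threshold on its brightest probe set, although the next brightest passed. Gclc, Gclm, Txnrd1, Nqo1, Osgin1 and Nfe2l2 did not pass. The 2 genes called higher were 2 of 9, where 4.57% of all genes tested were called in either direction, 3.82% higher and 0.755% lower. The median log2 change of the 9 was 0.25, beside -0.00473 over all genes tested, and 8 of the 9 changes were above 0. Leaving out single arrays moved that median between 0.16 (without the first control pool on lard) and 0.33.

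**Figure D1:**
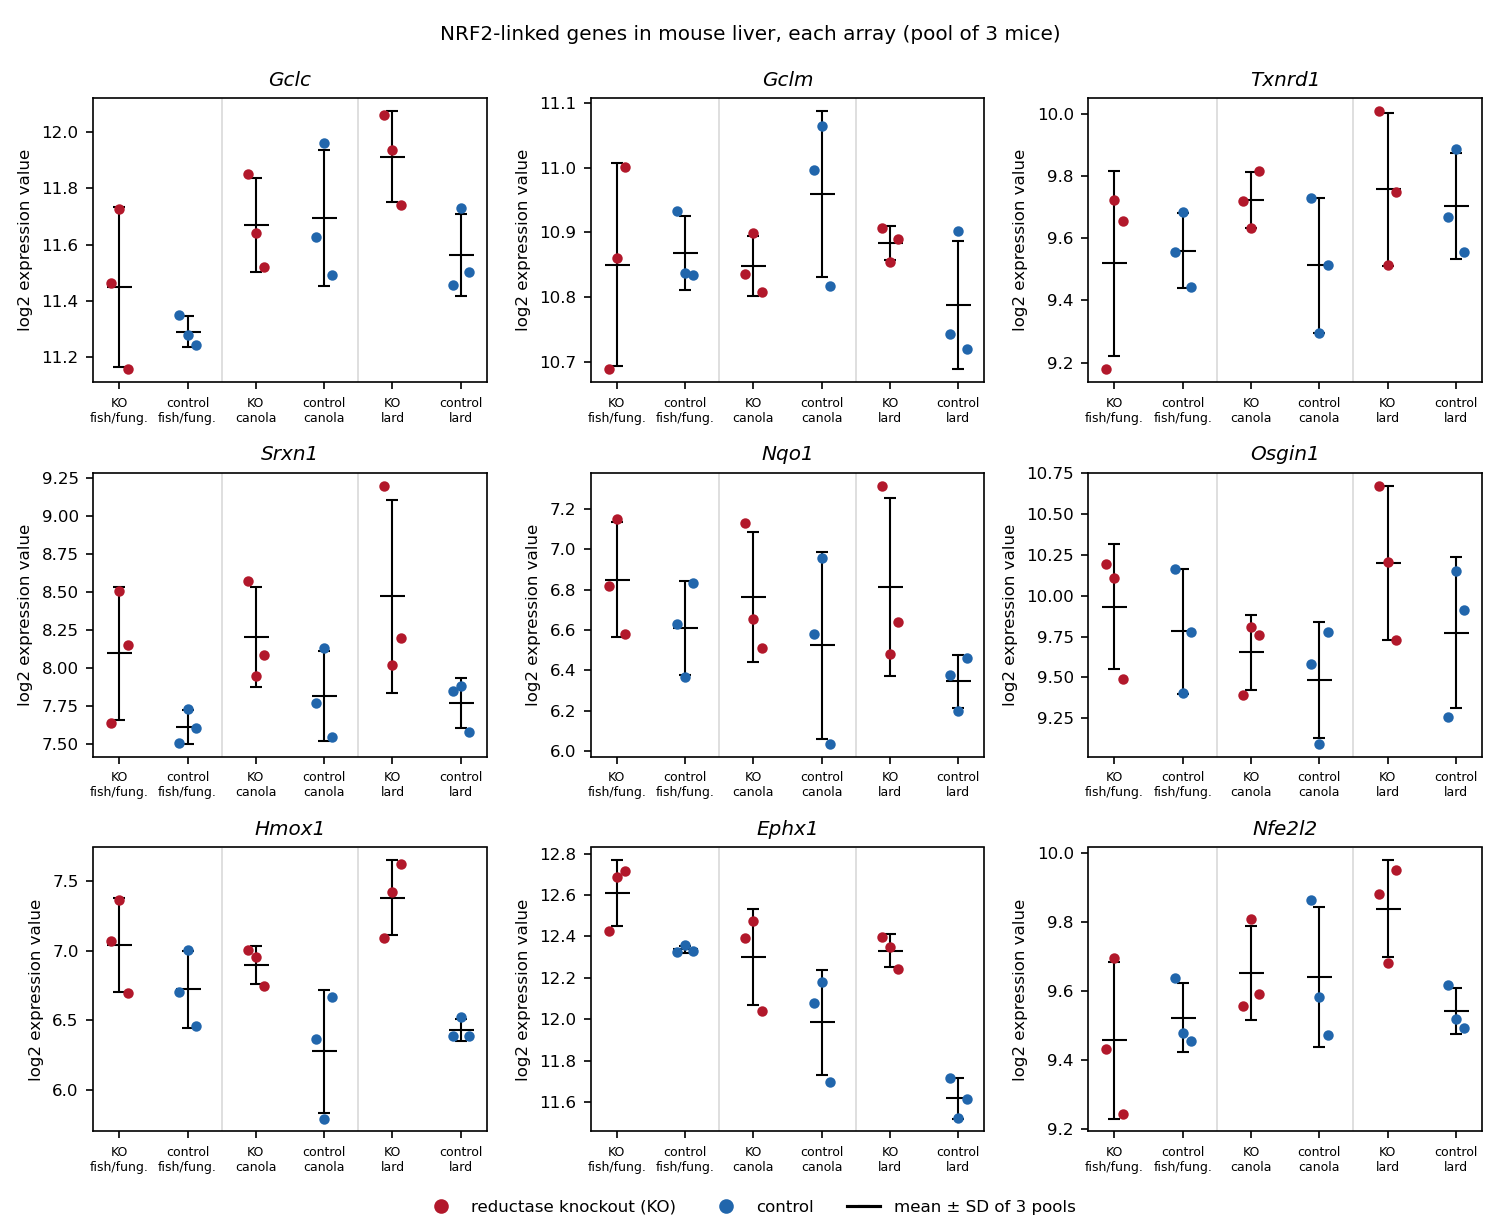
Log2 expression value of each of the 9 measured genes on every array, 1 panel per gene, with the knockout (KO, red) left of the control (blue) for each diet. Black lines are mean ± SD of 3 pools. On lard the KO and control arrays do not overlap for Hmox1, Ephx1, Srxn1, Gclc, Nqo1 and Nfe2l2.

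Hmox1, the inducible haem oxygenase that opens the haem ring to biliverdin, carbon monoxide and iron, lies on chromosome 8 from 75093618 to 75100593. On fish/fungal oil it read 7.07, 7.36 and 6.69 in knockout livers, against 6.70, 7.01 and 6.46 in controls, and the groups overlapped. On canola oil it read 7.00, 6.95 and 6.75 in knockout livers, against 6.36, 5.79 and 6.67 in controls, with every knockout pool above every control pool. On lard it read 7.09, 7.43 and 7.63 in knockout livers, against 6.38, 6.52 and 6.39 in controls, again without overlap. The averaged log2 change was 0.63 ± 0.12 (SE), with an adjusted p of 0.00467 from limma.

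Ephx1, the microsomal epoxide hydrolase that turns reactive epoxides, many of them made by P450s, into dihydrodiols, lies on chromosome 1 from 180989556 to 181017569. It read 12.43, 12.68 and 12.71 in knockout livers on fish/fungal oil, against 12.33, 12.36 and 12.33 in controls. It read 12.39, 12.48 and 12.04 in knockout livers on canola oil, against 12.08, 12.18 and 11.70 in controls. On lard it read 12.40, 12.35 and 12.24 in knockout livers, against 11.72, 11.52 and 11.62 in controls. Knockout and control pools were apart on fish/fungal oil and on lard and overlapped on canola oil. The averaged log2 change was 0.43 ± 0.07 (limma adjusted p = 0.00163).

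Srxn1, sulfiredoxin, returns over-oxidised peroxiredoxins to service with ATP, and lies on chromosome 2 from 152105524 to 152111376. Its brightest probe set, 1426875_s_at, read 7.63, 8.50 and 8.15 in knockout livers on fish/fungal oil, against 7.50, 7.73 and 7.60 in controls. It read 8.57, 7.94 and 8.08 in knockout livers on canola oil, against 7.77, 8.13 and 7.54 in controls. On lard the knockout pools read 9.20, 8.02 and 8.19, against 7.85, 7.88 and 7.58 in controls, and there the genotypes were apart. The SD of 0.64 between the knockout pools on lard was the widest of any group for this probe set. The averaged change was 0.52 ± 0.15 (limma adjusted p = 0.0579). Without the first knockout pool on lard it was 0.40 (adjusted p = 0.0833).

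A second Srxn1 probe set, 1451680_at, gave a narrower spread and a like change. It read 7.70, 8.25 and 7.64 in knockout livers on fish/fungal oil, against 7.10, 7.45 and 7.45 in controls. It read 8.16, 7.72 and 7.87 in knockout livers on canola oil, against 7.39, 7.71 and 7.60 in controls. On lard it read 8.39, 7.85 and 8.12 in knockout livers, against 7.47, 7.29 and 7.33 in controls. Every knockout pool stood above every control pool of its diet, on canola oil only narrowly (7.72 against 7.71). This held for 0.93% of all genes on their brightest probe set, whereas 1451680_at is 1 of 4 named for Srxn1 and not the brightest. Read from this probe set, in a fit without the probe sets prone to cross-hybridization (12190 genes tested), Srxn1 rose by 0.55 ± 0.10, or 1.46-fold (limma adjusted p = 0.00341). The other 2 probe sets named for Srxn1 were dimmer, and their averaged differences were 0.05 for 1419942_at and 0.61 for 1425351_at, so the 4 did not read alike.

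**Figure D2:**
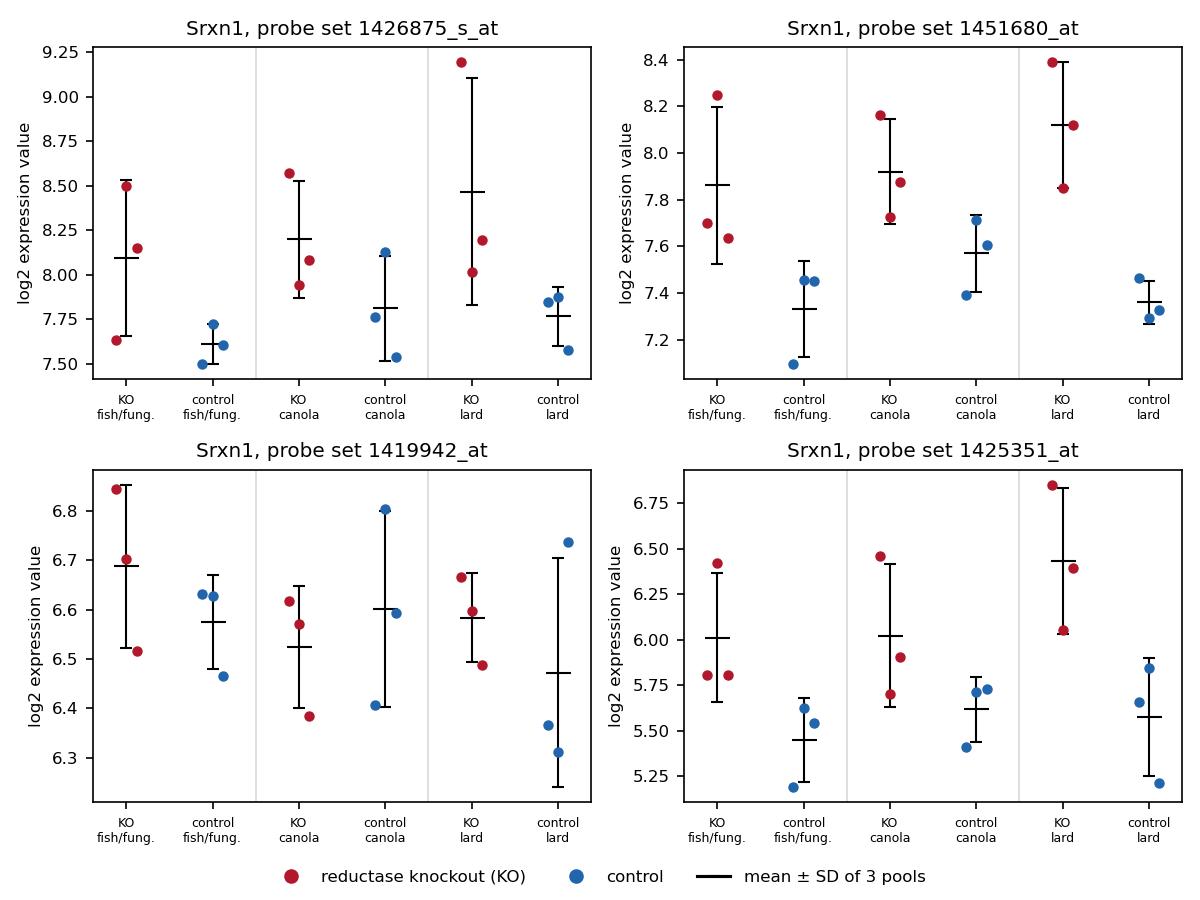
Log2 expression value of the 4 Srxn1 probe sets on every array, with the knockout (KO, red) left of the control (blue) for each diet and mean ± SD of 3 pools in black. Probe set 1451680_at separates the genotypes on every diet, on canola oil only narrowly, and 1419942_at, with a difference of 0.05, does not.

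Gclc and Gclm encode the catalytic and the modifier subunit of glutamate-cysteine ligase, the rate-limiting enzyme of glutathione synthesis. Gclc, on chromosome 9 from 77754535 to 77794489, differed by 0.16 ± 0.08 between knockout and control livers (adjusted p = 0.315). Gclm, on chromosome 3 from 122245487 to 122267215, differed by -0.01 ± 0.05 (adjusted p = 0.939). Gclm read 10.69 to 11.00 over the 9 knockout arrays and 10.72 to 11.07 over the 9 control arrays. The 95% interval for Gclm, from -0.12 to 0.10, was the narrowest of the 9. Their second probe sets differed by 0.01 for Gclc and by -0.00083 for Gclm.

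Txnrd1, the cytosolic thioredoxin reductase, uses NADPH to keep thioredoxin reduced, and lies on chromosome 10 from 82833951 to 82897724. It read 9.18 to 10.01 in knockout livers and 9.30 to 9.89 in controls. Its averaged change was 0.07 ± 0.09 (adjusted p = 0.73), with a 95% interval from -0.11 to 0.26. The 2 dimmer probe sets of Txnrd1 differed by 0.21 and -0.02.

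Nqo1, the quinone reductase most often used as a readout of NRF2, lies on chromosome 8 from 107388225 to 107403205. It read 6.82, 7.15 and 6.58 in knockout livers on fish/fungal oil, against 6.63, 6.37 and 6.83 in controls. It read 7.13, 6.65 and 6.51 in knockout livers on canola oil, against 6.58, 6.96 and 6.03 in controls. On lard it read 7.32, 6.48 and 6.64 in knockout livers, against 6.38, 6.20 and 6.46 in controls, and only there were the genotypes apart. The averaged change of 0.32 ± 0.14 (1.24-fold) had an unadjusted p of 0.0336 and an adjusted p of 0.226, so it did not pass. Its 95% interval ran from 0.03 to 0.60.

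Osgin1, an oxidative stress induced growth inhibitor on chromosome 8 from 119425882 to 119446257, differed by 0.25 ± 0.16 (adjusted p = 0.448) and overlapped between genotypes on each diet. It read 9.39 to 10.67 in knockout livers and 9.09 to 10.17 in controls. Nfe2l2, on chromosome 2 from 75675513 to 75704663, differed by 0.08 ± 0.07 (adjusted p = 0.622). NRF2 is controlled mainly through the stability of its protein, which arrays do not measure. Nfe2l2 read 9.25 to 9.95 in knockout livers and 9.46 to 9.87 in controls. The dimmer Nfe2l2 probe set differed by 0.21.

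**Figure D3:**
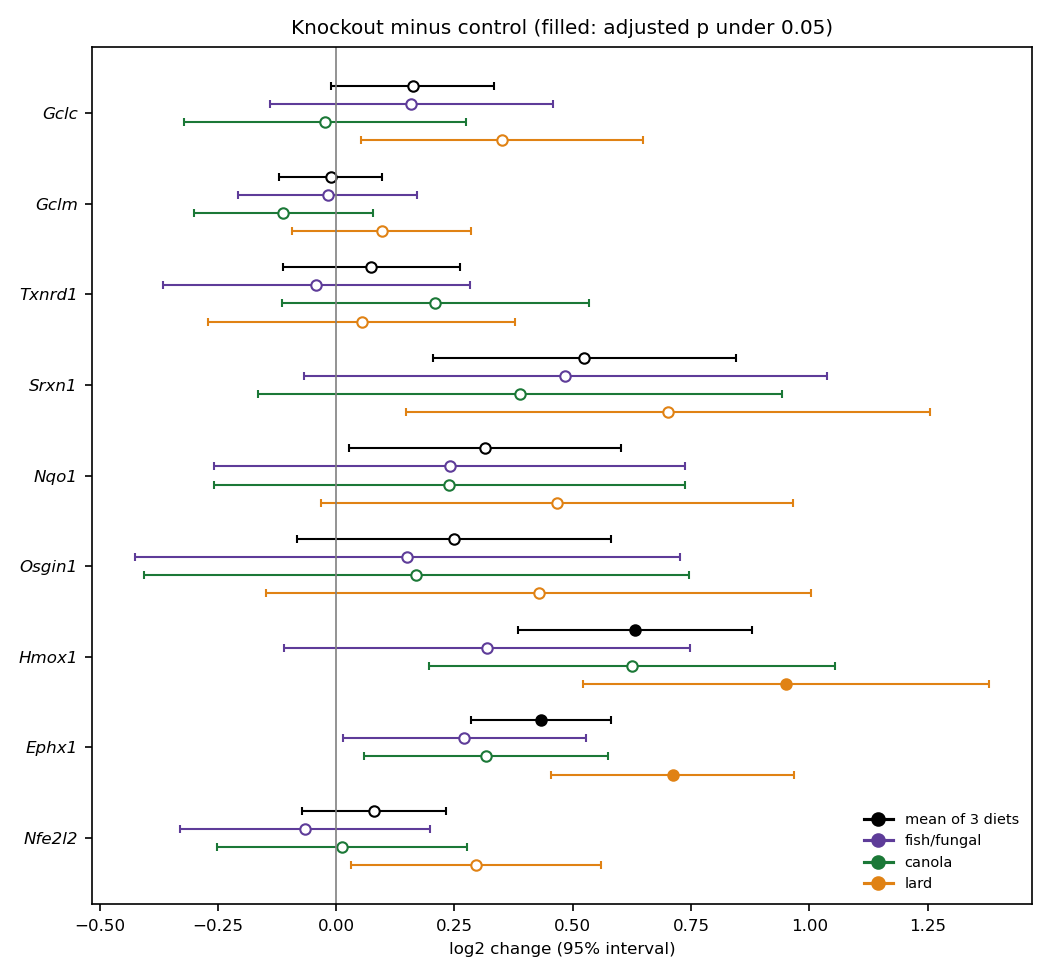
Log2 change of each gene in knockout relative to control livers, averaged over diets (black) and on each diet (coloured), with 95% intervals. Filled points passed an adjusted p of 0.05. Only Hmox1 and Ephx1 have filled points, for the average and for lard.

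Taken diet by diet, the knockout difference passed the threshold only on lard, for Hmox1 and Ephx1. On lard Hmox1 rose 1.93-fold (0.95 ± 0.20, limma adjusted p = 0.0332) and Ephx1 1.64-fold (0.71 ± 0.12, adjusted p = 0.00988), where 0.986% of all genes were called and 0.898% were called higher. All 9 changes on lard were above 0, with a median of 0.43 beside -0.0039 over all genes. Without the first knockout pool on lard 8 were above 0 and the median was 0.27, and without the third control pool on lard 8 were above 0 as well. Knockout and control pools on lard did not overlap for 6 of the 9 genes (Hmox1, Ephx1, Srxn1, Gclc, Nqo1 and Nfe2l2, all higher in knockout), against 9.14% of all genes apart and higher. On lard Gclc read 12.06, 11.94 and 11.74 in knockout livers, against 11.46, 11.73 and 11.50 in controls. Nfe2l2 read 9.88, 9.68 and 9.95 in knockout livers on lard, against 9.62, 9.52 and 9.49 in controls. The changes of Srxn1 (0.70 ± 0.26), Nqo1 (0.47 ± 0.24), Gclc (0.35 ± 0.14) and Nfe2l2 (0.30 ± 0.13) on lard had adjusted p-values from 0.308 to 0.521 and did not pass. Srxn1 read from 1451680_at changed by 0.76 ± 0.17 on lard (adjusted p = 0.0435 in its own fit).

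The first knockout pool on lard held the highest value of all 18 arrays for 5 of the 9 genes (Nqo1, Srxn1, Gclc, Osgin1 and Txnrd1), and it was the highest array for 9.43% of all genes tested. The third knockout pool on lard was the highest for Hmox1 and Nfe2l2. Without the first pool the change on lard was 0.34 for Srxn1, 0.27 for Gclc, 0.21 for Nqo1 and 0.19 for Osgin1, and that of Txnrd1 turned below 0 (-0.07, against 0.05 with it). The calls on lard rest on 3 pools a group. Hmox1 lost its call when the second or the third knockout pool on lard or any of the 3 control pools on lard was left out, with an adjusted p of up to 0.148 (without the third control pool on lard), while Ephx1 kept it, with adjusted p-values from 0.00336 to 0.0496.

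On fish/fungal oil 0 of the 9 genes passed (limma), where 0.294% of all genes did. An unadjusted p under 0.05 was held by 1 of the 9 and by 959 of all 12578 genes. Hmox1 differed there by 0.32 ± 0.20 (adjusted p = 0.773) and Ephx1 by 0.27 ± 0.12 (0.634). On canola oil 0 passed as well, where 0.0636% of all genes did, and 2 of the 9 and 772 of all genes had an unadjusted p under 0.05. Hmox1 differed there by 0.63 ± 0.20 (adjusted p = 0.578) and Ephx1 by 0.32 ± 0.12 (0.684). Hmox1 was apart between the genotypes on canola oil, where 7.04% of all genes were apart and higher, and Ephx1 was apart on fish/fungal oil, where 5.72% were.

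Whether the knockout difference itself depended on the diet was tested as an interaction. The F test called 0 of 12578 genes (0%), with 242 at an unadjusted p under 0.05, and among the 9 genes only Ephx1 had such a p (0.0392, adjusted p = 1). The knockout difference in Ephx1 was smaller on fish/fungal oil than on lard (difference -0.44 ± 0.17, unadjusted p = 0.0206), and so was that in Hmox1 (-0.63 ± 0.29, unadjusted p = 0.0421). Both had an adjusted p of 1, so the larger values on lard were not shown to differ from those on the other fats.

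Hmox1 is strongly expressed by the macrophages that clear red cells, and the markers of those cells were therefore set beside it. The list was chosen with earlier results of these data known. Over all genes tested 3.82% were called higher in knockout livers and 0.755% lower. Of 18 Kupffer cell and macrophage markers 8 rose in knockout livers and 0 fell, with a median change of 0.33. Among them were Mmp12, a macrophage elastase (1.61 ± 0.22, adjusted p = 0.000456), the lysozyme gene Lyz2 (0.54 ± 0.12, adjusted p = 0.0127), the lysosomal membrane protein Cd68 (0.52 ± 0.10, adjusted p = 0.00693) and Gpnmb (0.51 ± 0.10, adjusted p = 0.00856). Mmp12 lay above the array median on 6 of the 18 arrays, while the Kupffer cell markers Clec4f and Adgre1 lay above it on all 18. Marker levels were summed on the linear scale, so bright probe sets weigh most in the sum and a dim one such as that of Mmp12 weighs little. The log2 of the summed marker level ranged from 13.65 to 14.37 in knockout livers and from 13.81 to 13.94 in controls on fish/fungal oil. It ranged from 13.51 to 13.91 in knockout livers and from 13.20 to 13.67 in controls on canola oil, and from 14.07 to 14.16 in knockout livers and from 13.36 to 13.82 in controls on lard. The genotypes were thus apart in this sum on lard alone, where 5 of the 18 markers rose. The genes closest to Hmox1 over the 18 arrays, which share both genotypes and all diets, were Olfml3 (Pearson's r = 0.883), Slc15a3 (0.870) and Cd68 (0.870). The part of the macrophage markers in the Hmox1 result was not tested.

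Ephx1 is also inducible by phenobarbital-like compounds, which act through the nuclear receptor CAR. Targets of CAR and PXR were set beside it, again in a list chosen with earlier results of these data known. Over all genes tested 3.82% were called higher and 0.755% lower. Of the 8 targets 7 rose in knockout livers and 0 fell, with a median change of 0.93. Among them were Cyp2b10 (4.91 ± 0.28, adjusted p = 1.49e-08), Cyp2c55 (4.14 ± 0.20, adjusted p = 1.17e-09), the transporter Slco1a4 (1.63 ± 0.19, adjusted p = 0.000106) and the carboxylesterase Ces2a (1.06 ± 0.09, adjusted p = 1.24e-06). The log2 of their summed level ranged from 15.47 to 15.57 in knockout livers and from 14.76 to 14.89 in controls on fish/fungal oil. It ranged from 15.01 to 15.42 in knockout livers and from 14.53 to 14.72 in controls on canola oil, and from 15.31 to 15.48 in knockout livers and from 14.48 to 14.69 in controls on lard. Knockout arrays were above control arrays in this sum on every diet. The genes closest to Ephx1 over the 18 arrays were 9130409I23Rik (r = 0.919), Ildr2 (0.909) and the conjugate exporter Abcc3 (0.894). The part of these receptors in the Ephx1 result was not tested.

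**Figure D4:**
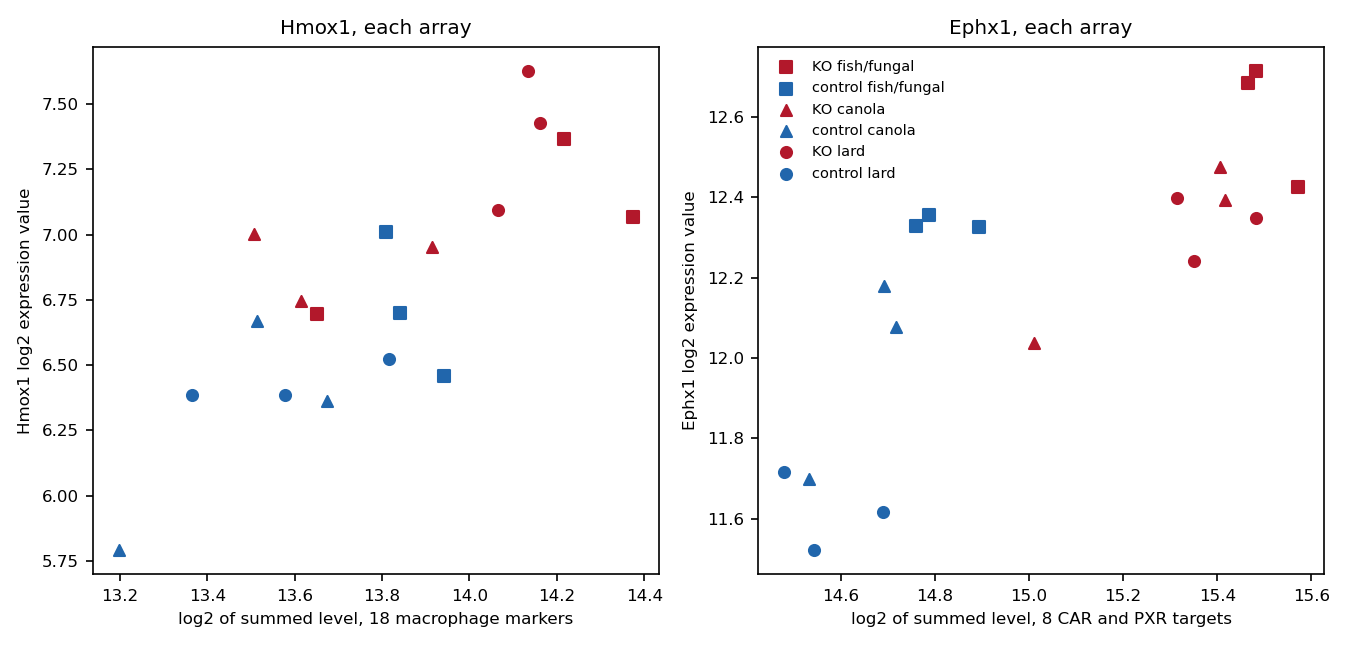
Each point is 1 array, with red for knockout (KO), blue for control and the shape giving the diet. Left, Hmox1 against the log2 of the summed level of 18 macrophage markers, where the KO arrays on lard lie at 14.07 to 14.16. Right, Ephx1 against the log2 of the summed level of 8 CAR and PXR targets, where the KO arrays lie at 15.01 to 15.57, right of all control arrays.

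Further genes of the pathway were read from lists of textbook genes that leave out the 10 members. Among 9 regulators of NRF2 only Sqstm1, whose product p62 draws KEAP1 into autophagy, rose (0.19 ± 0.04, adjusted p = 0.0137), 0 fell and the median was 0.05. Keap1, which falls outside the rule for naming genes and was named after its value was seen, differed by 0.05 ± 0.06 (adjusted p = 0.732). Of 8 tested genes of glutathione synthesis, recycling and use, Glrx (glutaredoxin, 0.35 ± 0.09, adjusted p = 0.0402) and Gpx4 (the lipid hydroperoxide peroxidase, 0.26 ± 0.06, adjusted p = 0.0179) rose. Cbs, the enzyme that leads homocysteine towards cysteine, fell by 0.38 (SE 0.07, adjusted p = 0.00559), and the median was 0.13. In the thioredoxin and peroxiredoxin system 0 of 9 passed (median 0.02), with Txnip, an inhibitor of thioredoxin, at 0.34 ± 0.10 (adjusted p = 0.0522) and Txn1 at 0.11 ± 0.04 (adjusted p = 0.181). Of the enzymes of NADPH supply 0 of 6 passed (median 0.03), with Taldo1 at 0.11 ± 0.06 (adjusted p = 0.34) and Pgd at 0.30 ± 0.16 (adjusted p = 0.349).

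Among the conjugating and exporting genes every call was upward, in a comparison where most calls were. Over all genes tested 480 (3.82%) were called higher and 95 (0.755%) lower. Of 14 tested glutathione transferases 7 rose and 0 fell, with a median of 0.43. They included Gstm3 (3.04 ± 0.20, adjusted p = 9.06e-08), Gstm2 (1.03 ± 0.13, adjusted p = 0.00028), Gsta2 (0.99 ± 0.18, adjusted p = 0.00407) and Gstt3 (0.89 ± 0.20, adjusted p = 0.0135). Glutathione transferases of 1 class are close copies of each other, and probe sets may share their signal. Of 13 other detoxification and export genes linked to NRF2, 6 rose and 0 fell, with a median of 0.36. They included the carbonyl reductases Cbr3 (1.23 ± 0.33, adjusted p = 0.0398) and Cbr1 (0.49 ± 0.11, adjusted p = 0.0195), Abcc3 (1.18 ± 0.16, adjusted p = 0.000436) and Entpd5 (0.73 ± 0.09, adjusted p = 0.000172). Many of these genes are inducible through CAR and PXR as well. Of 7 tested haem and iron genes 2 rose, the haem exporter Flvcr1 (0.32 ± 0.09, adjusted p = 0.0422) and the ferritin heavy chain gene Fth1 (0.13 ± 0.04, adjusted p = 0.0477). Of 6 genes of radical removal not named for NRF2, 0 passed, with Cat at -0.08 ± 0.03 (adjusted p = 0.124) and the metallothionein Mt1 at 0.63 ± 0.25 (adjusted p = 0.182).

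Among markers of other liver cells, Timp1 rose (0.36 ± 0.06, adjusted p = 0.00311) as 1 of 11 stellate cell and fibroblast genes. The median change of these 11 was 0.32, close to the 0.33 of the 18 macrophage markers. Of the 11, 9 changes were above 0, beside 17 of the 18. None of 8 endothelial, 3 cholangiocyte, 3 neutrophil, 6 hepatocyte or 6 periportal markers tested passed in either direction. Of 9 pericentral hepatocyte markers 3 rose, Rhbg (0.70 ± 0.13, adjusted p = 0.00561), Cyp1a2 (0.63 ± 0.11, adjusted p = 0.00254) and Oat (0.42 ± 0.08, adjusted p = 0.00612). The summed levels of some of these lists were nonetheless apart between the genotypes, most of them on lard only. How often such sums stand apart without a genotype effect was not tested. On lard the log2 sum of the endothelial markers ranged from 11.94 to 12.02 in knockout livers and from 11.75 to 11.85 in controls, and that of the stellate cell markers from 12.55 to 12.99 in knockout livers and from 12.51 to 12.52 in controls. The hepatocyte sum on lard was lower, at 16.50 to 16.54 in knockout livers against 16.57 to 16.60 in controls, as was the periportal sum, at 14.98 to 15.10 in knockout livers against 15.13 to 15.18 in controls. The hepatocyte sum was also apart on fish/fungal oil, at 16.44 to 16.48 in knockout livers against 16.51 to 16.56 in controls, and overlapped on canola oil. The endothelial, stellate cell and periportal sums overlapped between the genotypes on both oils. On canola oil the endothelial sum ranged from 11.51 to 11.95 in knockout livers and from 11.62 to 12.01 in controls. The cholangiocyte and neutrophil sums overlapped on every diet. The pericentral sum was higher without overlap on all 3 diets. It ranged from 15.28 to 15.52 in knockout livers and from 15.17 to 15.19 in controls on fish/fungal oil, from 15.30 to 15.40 in knockout livers and from 14.98 to 15.28 in controls on canola oil, and from 15.33 to 15.54 in knockout livers and from 15.17 to 15.21 in controls on lard. The part of these lists in the results for Hmox1, Ephx1 and the other NRF2-linked genes was not tested.

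The diets were compared next, over both genotypes with 6 arrays per diet. Ephx1 rose 1.41-fold on fish/fungal oil relative to lard, and it was the only member called in any diet comparison. Gclc was lower on fish/fungal oil without passing the threshold. Hmox1, the member with the largest knockout change, stood at -0.02 ± 0.14 in the same comparison. Of all genes tested 2.32% were called on fish/fungal oil against lard, 0.541% higher and 1.78% lower, beside 1 of the 9 members. The members' median change was -0.13, beside -0.000509 over all genes. It was -0.02 without the third knockout pool on fish/fungal oil, -0.08 without the first knockout pool on lard and -0.04 without the second control pool on lard.

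The change of Ephx1 on fish/fungal oil relative to lard was 0.50 ± 0.09 (limma adjusted p = 0.00325), and relative to canola oil 0.33 ± 0.09 (adjusted p = 0.086). Its group means were 12.61 ± 0.16 on fish/fungal oil, 12.30 ± 0.23 on canola oil and 12.33 ± 0.08 on lard in knockout livers (SD, n = 3 pools each). In control livers they were 12.34 ± 0.02 on fish/fungal oil, 11.99 ± 0.25 on canola oil and 11.62 ± 0.10 on lard. The lowest group was thus the control on lard and the highest the knockout on fish/fungal oil.

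Split by genotype, Ephx1 rose by 0.72 ± 0.12 on fish/fungal oil relative to lard in controls (1.65-fold, limma adjusted p = 0.00615), where 0.716% of all genes were called. In knockout livers it differed by 0.28 ± 0.12 (adjusted p = 0.537), where 0 of the 9 members and 0.461% of all genes passed. There 3 members and 1076 of all 12578 genes had an unadjusted p under 0.05. The difference between the changes of Ephx1 in the 2 genotypes is the same interaction as above (unadjusted p = 0.0206, adjusted p = 1). The call in controls was lost without the second control pool on lard, at 0.67 with an adjusted p of 0.0509. In each genotype every pool on fish/fungal oil stood above every pool on lard for Ephx1, as for 4.81% of all genes in knockout livers and 6.2% in controls.

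Gclc read 11.46, 11.73 and 11.16 in knockout livers on fish/fungal oil, against 11.85, 11.64 and 11.52 on canola oil and 12.06, 11.94 and 11.74 on lard. In control livers it read 11.35, 11.28 and 11.24 on fish/fungal oil, against 11.63, 11.96 and 11.49 on canola oil and 11.46, 11.73 and 11.50 on lard. In each genotype every fish/fungal pool lay below every lard pool, as for 6.14% of all genes in knockout livers and 7.39% in controls. Over both genotypes the change relative to lard was -0.37 ± 0.10 (adjusted p = 0.0672) and relative to canola oil -0.31 ± 0.10 (adjusted p = 0.19). The second Gclc probe set differed by -0.26 and -0.35. The change relative to lard passed without the second knockout pool on fish/fungal oil (adjusted p = 0.0195) and without the second control pool on canola oil (adjusted p = 0.0408).

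Nfe2l2 was -0.20 ± 0.09 on fish/fungal oil relative to lard (adjusted p = 0.337), and in knockout livers alone -0.38 ± 0.13 (adjusted p = 0.295). Srxn1 stood at -0.27 ± 0.19, Txnrd1 at -0.19 ± 0.11, Osgin1 at -0.13 ± 0.19, Nqo1 at 0.15 ± 0.17 and Gclm at 0.02 ± 0.06, with adjusted p-values from 0.488 to 0.916. The interval for Gclm ran from -0.11 to 0.16, and that for Srxn1 from -0.66 to 0.13. Without the first knockout pool on lard the change was -0.08 for Srxn1, -0.01 for Osgin1 and 0.28 for Nqo1.

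**Figure D5:**
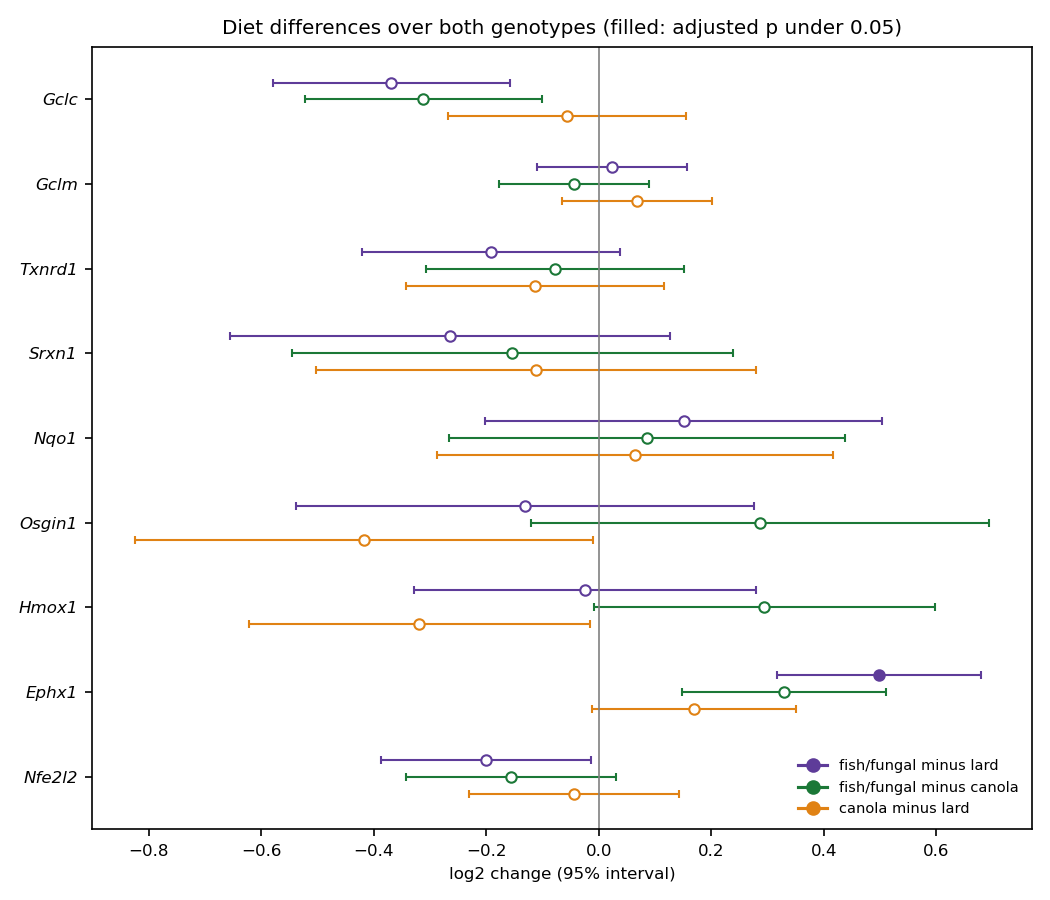
Log2 change of each gene between diets over both genotypes, with 95% intervals, for fish/fungal oil minus lard, fish/fungal oil minus canola oil and canola oil minus lard. Filled points passed an adjusted p of 0.05, and the only one is Ephx1 for fish/fungal oil minus lard, at 0.50.

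Fish/fungal oil against canola oil called 0 of the 9 members (limma), where 0.986% of all genes were called. An unadjusted p under 0.05 was held by 2 members and 1218 of all 12578 genes. Within the genotypes the same comparison called 0 members in knockout livers, with 0.159% of all genes called, and 0 in controls, with 0.262% called. Such a p was held by 1 member and 745 genes in knockout livers, and by 3 members and 826 genes in controls. Canola oil against lard called 0 members and 0% of all genes, with 852 genes and 2 members at an unadjusted p under 0.05, and within each genotype it again called 0% (607 genes in knockout livers and 579 in controls at such a p, with 1 member each). The 2 members were Osgin1, at -0.42 ± 0.19 (adjusted p = 0.723), and Hmox1, at -0.32 ± 0.14 (adjusted p = 0.714). Osgin1 read 9.39, 9.81 and 9.76 in knockout livers on canola oil, against 10.67, 10.21 and 9.73 on lard. In control livers Osgin1 read 9.59, 9.09 and 9.78 on canola oil, against 9.26, 10.15 and 9.91 on lard, and the pools overlapped in both genotypes. In knockout livers all 9 members were below 0 on canola oil relative to lard (median -0.19), with Hmox1 at -0.48 ± 0.20 (limma adjusted p = 0.942). In controls 6 were above 0 and 3 below (median 0.10). The knockout pools on lard used here also enter the knockout comparison on lard.

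Among the further genes of the pathway, 2 of 6 enzymes of NADPH supply fell on fish/fungal oil relative to lard, malic enzyme Me1 (-1.98 ± 0.38, adjusted p = 0.00785) and transketolase Tkt (-0.55 ± 0.12, adjusted p = 0.0234), with a median of -0.35. Of 14 glutathione transferases 3 fell and 0 rose, Gstm2 (-0.86 ± 0.16, adjusted p = 0.00752), Gstm6 (-0.71 ± 0.17, adjusted p = 0.0366) and Gsta3 (-0.38 ± 0.07, adjusted p = 0.00351). The metallothioneins Mt2 (2.50 ± 0.39, adjusted p = 0.00119) and Mt1 (2.28 ± 0.31, adjusted p = 0.000323), which bind zinc and copper, rose as 2 of 6 genes of radical removal. Txnip rose (0.58 ± 0.12, adjusted p = 0.0104) as 1 of 9 genes of the thioredoxin system, and Cyp2c37 (0.54 ± 0.13, adjusted p = 0.0329) as 1 of 8 targets of CAR and PXR. The regulators of NRF2, the glutathione genes, the other detoxification genes and the haem and iron genes held 0 calls in this comparison. Their smallest p-values belonged to Sqstm1 (-0.16 ± 0.05, adjusted p = 0.144), Cbs (-0.26 ± 0.09, 0.173), Abcc3 (0.58 ± 0.20, 0.179) and Blvrb (0.26 ± 0.11, 0.278). The 8 lists of cell type markers held 0 calls as well, with a median of 0.08 for the 18 macrophage markers. The genotypes differed in this list. In controls 17 of the 18 macrophage markers were above 0 (median 0.23), and in knockout livers 6 were (median -0.055), with 0 calls in each.

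Within groups, after each group's mean was taken off, Nqo1 and Srxn1 had r = 0.72 and Nqo1 and Gclc r = 0.70 over the 18 arrays. Gclm and Ephx1 had r = 0.60, Srxn1 and Txnrd1 0.59, Gclc and Srxn1 0.57, and Nqo1 and Ephx1 0.56. Hmox1 had r = -0.43 with Nqo1, -0.43 with Gclm, -0.36 with Ephx1, -0.29 with Srxn1 and -0.06 with Gclc on the same basis, and 0.28 with Nfe2l2, 0.17 with Txnrd1 and 0.14 with Osgin1. These values describe 6 groups of 3 separate pools, and no p is given for them. The first knockout pool on lard, the highest of all 18 arrays for Nqo1, Srxn1 and Gclc, weighs heavily in the correlations among these genes. They were not recomputed without that pool.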

How the data were processed

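The authors measured liver RNA, pooled from 3 mice per array per the labels' protocols, on the Affymetrix Mouse Genome 430 2.0 array, and deposited log2 expression values. RMA produced them, per the submitters' processing notes, with the version not given in the sources used here. The log2 scale was read from the values, which run from 2.409 to 14.89. RMA puts all arrays on 1 distribution, so a shift common to most genes cannot be seen. Of 45101 probe sets 34945 had 1 gene symbol, 932 had several, 9160 are unnamed here and 64 are array controls.

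Each gene was read from its brightest probe set over 18 arrays and tested if above the array median in at least 3. One fit of 6 group means with an intensity trend (limma 3.58.1, R 4.3.3) gave two-sided p-values adjusted by Benjamini-Hochberg over 12578 genes, with a threshold of 0.05. Values are log2 changes ± SE, and 95% intervals are not adjusted. The scripts were tested on simulated data. For each member called in the averaged knockout comparison, the 3 other genes with the highest Pearson's r are named. From each list up to 4 genes past the threshold are named, or up to 2 with the smallest p where none passed. The lists hold 9 sets of pathway genes and 8 of cell type markers.

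The members and lists were chosen with earlier results of these data known. Replicate numbers name pools and were not used to pair them in the main fit. Nothing in the labels says how mice were assigned to pools. The alternatives were quantile normalization, centring, a filter at the 75th percentile or none, averaging all probe sets of a gene, dropping the cross-hybridizing types (_x_ and _s_), a fit with no trend, a fit of the compared groups alone, the replicate number as a block, and omission of single arrays.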

Additional observations from a re-analysis of the deposited data

Results flagged for a closer look

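Gclm, the modifier subunit of glutamate-cysteine ligase, differed between the genotypes with opposite signs on canola oil and lard, and neither difference passed. On canola oil all 3 knockout pools lay below the control mean, with a log2 change of -0.11 (limma adjusted p = 0.98), and on lard all 3 knockout pools lay above it, with a log2 change of 0.10 (adjusted p = 0.8). The difference between these changes (canola oil relative to lard) was -0.21 ± 0.13 (limma, unadjusted p = 0.119, adjusted p = 1). The second Gclm probe set read 10.34, 10.47 and 10.40 in knockout livers on canola oil, against 10.41, 10.75 and 10.24 in controls. On it not all knockout pools on canola oil lay below the control mean, while those on lard all lay above theirs.

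Hmox1 was lower on fish/fungal oil than on lard in knockout livers, with a log2 change of -0.34, and higher in control livers, with a log2 change of 0.29. Neither passed (limma adjusted p = 0.727 in knockout livers and 0.81 in controls), and the difference between them was -0.63 ± 0.29 (unadjusted p = 0.0421, adjusted p = 1).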

How the results depend on the processing

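Deviations from the group means were correlated between arrays of different groups with the same replicate number (45 pairs, r from -0.397 to 0.458, 17 above 0.1). The median r of these pairs was -0.00757, beside -0.0407 for pairs with different numbers. Whether some arrays share a batch was not tested. With that number as a block, 1 of the 9 members was called in the knockout comparisons within a diet, in place of 2 (Hmox1 on lard had an adjusted p of 0.0506). In the same fit 2 were called for fish/fungal oil relative to lard, in place of 1 (Gclc was added, adjusted p = 0.0219). The block changed the count in no other comparison. Leaving out each array in turn gave 1 to 2 calls within a diet, 2 to 3 for the averaged knockout comparison, 1 to 2 for fish/fungal oil relative to lard and 0 to 1 for the diet comparisons within a genotype. It gave 0 calls for fish/fungal oil relative to canola oil, for canola oil relative to lard and for the interaction. The cause of these shifts was not tested. Each omission left fewer arrays in the fit, while the fit with the block kept all 18. Hmox1 kept its call in the averaged knockout comparison under all 18 omissions (0.55 to 0.70, adjusted p from 0.00193 to 0.0125), as did Ephx1 (0.39 to 0.48, adjusted p from 0.000336 to 0.00503). Ephx1 also kept its call for fish/fungal oil relative to lard (0.47 to 0.54, adjusted p from 0.00112 to 0.0124).

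Srxn1 in the averaged comparison passed the threshold after centring (adjusted p = 0.0475), with the mean of its probe sets (0.43, adjusted p = 0.0138), without probe sets prone to cross-hybridization (0.55, adjusted p = 0.00341), and without the second knockout pool on lard (0.0302), the second control pool on canola oil (0.0466) or the first knockout pool on fish/fungal oil (0.0273). No called change turned its sign. The filter at the 75th percentile left out Nqo1. The fit with only the groups compared does not apply to the averaged comparison or the interaction, which use all groups. The averaged change of Osgin1 had a 95% interval from -0.08 to 0.58, so a moderate rise there could not be told from none.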
